A study of Mus musculus with 10 samples.

Results

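Telomere maintenance genes were followed across 6 groups of mouse embryonic stem cells. The set comprised Tert, Terf1, Terf2, Tinf2, Pot1a, Pot1b, Acd, Rif1 and Dkc1, and its members were all non-control probes whose gene name in the scanner files is 1 of these 9. The rule found all 9 genes among 36161 gene names, with 13 of the 55681 probes, and it reads gene names only. A probe was tested if at least 1 group had it well above background on all its arrays, which held for 12 of the 13. The second Pot1a probe was well above background on 0 of the 10 arrays.

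The study measured expression on 10 one-colour Agilent arrays labelled with Cy3, and its design text asks what loss of DNA methylation through PRDM14 overexpression does to expression. Each group is 1 cell line, grown feeder-free with serum and the cytokine LIF. PRDM14 (2 arrays) is line JP-23, with the genotype wild-type stably expressing Prdm14. PRDM14_DNMT3B (2 arrays) is line JP-23+3b-3, which stably expresses Prdm14 and Dnmt3b1. Dnmt3b_KO (2 arrays) is line 8bb, Dnmt1_KO (1 array) is line 36, and TKO (1 array) is line 19-1, which lacks Dnmt1, Dnmt3a and Dnmt3b. J1 (2 arrays) is the wild-type line. The sample titles of PRDM14 and PRDM14_DNMT3B also name J1, while those of the knockout lines do not. Dnmt1 keeps DNA methylation through cell division, Dnmt3a and Dnmt3b add it anew, and Prdm14 is a regulator of naive pluripotency. With 1 line a group, a genotype and its line cannot be told apart. Nothing says that the 2 arrays of a line came from separate cultures, so p-values reflect only how these arrays vary, which may be technical variation.

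Telomeres are repeats at chromosome ends that shorten with replication. Telomerase, built on the reverse transcriptase Tert and an RNA template and stabilised by dyskerin (Dkc1), adds repeats back, and it is active in embryonic stem cells. The shelterin complex covers the repeats: Terf1 and Terf2 encode the double-stranded DNA binding proteins TRF1 and TRF2, Pot1a and Pot1b encode single-stranded DNA binding proteins, and TIN2 (Tinf2) and TPP1 (Acd) join the DNA binding parts to each other.

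A level below is the log2 intensity of a probe relative to its array's 75th percentile, and a difference is the first-named line minus the second, in log2 units with its standard error. Levels of different probes are not set against each other. Tests were moderated tests in limma on all 10 arrays, with Benjamini-Hochberg adjustment over 33099 probes and a call at an adjusted p under 0.05. A difference that did not pass is not shown to be absent. A gene with several probes is counted by its brightest one. For Dnmt1_KO and TKO, with a single array, the spread is borrowed from the replicated lines.

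The arrays were alike in quality. Well above background were 50.03% to 56.03% of spots, the 75th percentile of the signal ran from 243.1 to 337.3 intensity units, and replicate arrays correlated at r of 0.995 to 0.998 over 24277 probes. The knocked-out genes fell in their lines: Dnmt1 fell by 4.14 in Dnmt1_KO and by 4.61 in TKO, and Dnmt3b fell by 5.93 in Dnmt3b_KO and by 5.59 in TKO, and Dnmt3a by 6.12 in TKO (in limma, the largest adjusted p was 0.000313). The Prdm14 probe did not rise in either line labelled as expressing Prdm14. Its difference from J1 was -4.18 in PRDM14, and in PRDM14_DNMT3B it was not well above background. Dnmt3b likewise fell against J1, by 2.56 in PRDM14 and by 3.45 in PRDM14_DNMT3B. The sources used here do not say whether these probes lie in the introduced sequences, so PRDM14 and PRDM14_DNMT3B below mean the lines so labelled. All 8 embryonic stem cell markers (among them Pou5f1, Sox2 and Nanog) were above background on all 10 arrays. Their summed signal, in multiples of the 75th percentile, was 1138 to 1216 in PRDM14 and 1049 to 1119 in PRDM14_DNMT3B. It was 1006 to 1090 in Dnmt3b_KO, 770 in Dnmt1_KO and 1010 in TKO, against 948 to 1056 in J1. Of 7 fibroblast markers, Lum and Postn were above background on no array, and the summed signal of the list was 1.24 to 1.33 in PRDM14, 1.58 to 2.02 in PRDM14_DNMT3B, 9.41 to 9.46 in Dnmt3b_KO, 7.68 in Dnmt1_KO and 7.23 in TKO, against 3.58 to 3.96 in J1, in multiples of the 75th percentile. On the same scale, 5 trophoblast markers summed to 29.2 to 30.3 in PRDM14, 20.5 to 20.8 in PRDM14_DNMT3B, 82.7 to 87.9 in Dnmt3b_KO, 75.8 in Dnmt1_KO and 14.3 in TKO, against 50.5 to 50.8 in J1. For 5 primitive endoderm markers, the sum was 0.264 to 0.293 in PRDM14, 0.324 to 0.358 in PRDM14_DNMT3B, 0.706 to 0.819 in Dnmt3b_KO, 0.825 in Dnmt1_KO and 2.37 in TKO, against 0.507 to 0.508 in J1. A sum of linear signal mostly follows the brightest genes of its list, and within a list levels did not all differ in the same direction. The fibroblast genes Col1a1 and Col1a2 averaged 1.73 and 1.42 in Dnmt3b_KO, against -1.98 and -2.05 in J1, while Dcn averaged -1.80 in Dnmt3b_KO and -1.10 in J1. Of the trophoblast genes, Krt8 averaged 0.36 in PRDM14, 6.19 in Dnmt3b_KO and 5.28 in J1. Tfap2c averaged 4.78 in PRDM14, 3.45 in Dnmt3b_KO and 3.33 in J1. The part of these markers in the results was not tested, and in bulk RNA fewer cells of a type and less RNA per cell cannot be told apart.

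The sequences of 2 genes carry most of what follows. Tinf2 is read by 2 probes on the minus strand that adjoin each other in mm9, A_55_P2087865 (the brightest) at chr14:56298352-56298411 and A_52_P639551, whose bases are spread over chr14:56298188-56298351. They are shown because they gave the same result from adjoining stretches of the gene, 5′ to 3′.
Tinf2 A_55_P2087865: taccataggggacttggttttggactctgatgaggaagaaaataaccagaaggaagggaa
Tinf2 A_52_P639551: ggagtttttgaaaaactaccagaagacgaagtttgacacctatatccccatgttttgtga
Terf2 is read by 3 probes on the minus strand of chromosome 8, shown because they did not give the same result. The 5′-most is A_52_P391210 at chr8:109600701-109600760. A_55_P2034350 (the brightest, for the transcript that the files call variant 2) lies 1281 bases downstream at chr8:109599420-109599479, and A_55_P2034345 lies 6879 bases downstream of the first at chr8:109593822-109593881. The whole 5′-most probe and the first 30 bases of the others follow.
Terf2 A_52_P391210: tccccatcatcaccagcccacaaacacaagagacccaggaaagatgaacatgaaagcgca
Terf2 A_55_P2034350: atggcttccttgcattgggtgtactcttac
Terf2 A_55_P2034345: tatgttgagcccagatgagagattttttca
Whether a probe lies in coding sequence or in a UTR was not annotated in the sources used here.

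Because the lines differ in DNA methyltransferases, which act on the dinucleotide CG, the promoter windows of the member that differed from J1 in every line and of Tert are shown with each CG in capitals. They are from RefSeq (GRCm38.p6) and run from 250 bases before to 50 bases after the gene's start, at chr14:55681768-55682067 on the minus strand for Tinf2 and at chr13:73626661-73626960 on the plus strand for Tert.
Tinf2 promoter: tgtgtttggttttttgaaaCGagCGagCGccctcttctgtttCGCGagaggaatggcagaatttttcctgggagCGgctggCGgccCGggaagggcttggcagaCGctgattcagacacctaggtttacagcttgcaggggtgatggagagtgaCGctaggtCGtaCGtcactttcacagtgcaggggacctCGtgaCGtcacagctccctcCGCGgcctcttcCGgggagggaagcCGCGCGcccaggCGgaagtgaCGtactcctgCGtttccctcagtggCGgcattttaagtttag
Tert promoter: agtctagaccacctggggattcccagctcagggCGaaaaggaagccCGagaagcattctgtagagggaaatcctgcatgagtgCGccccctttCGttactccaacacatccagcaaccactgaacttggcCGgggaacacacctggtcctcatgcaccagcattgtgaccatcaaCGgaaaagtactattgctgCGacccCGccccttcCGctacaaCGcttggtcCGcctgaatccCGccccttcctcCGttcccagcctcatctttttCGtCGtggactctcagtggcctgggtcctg
The Tinf2 window held 24 CG and the Tert window 15. CG reads the same on both strands and was not set against any other motif. Of all 32851 windows of this length in the table, 20.0% held at least as many CG as Tinf2 and 34.6% at least as many as Tert, with a median of 7. Among the other member genes with a window, Pot1a had 22, Terf2 18, Pot1b 15, Dkc1 9 and Acd 7, so 7 of 9 genes were matched. Methylation itself was not measured on these arrays.

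Tinf2 was about 2-fold higher than J1 in all 5 other lines. No other member passed the test in all 5. The share of all genes that passed in all 5 is not given here, so passing in all 5 is not shown to be unusual. Rif1 was higher than J1 in both lines labelled as expressing Prdm14, Terf1 in PRDM14, and Tert in PRDM14_DNMT3B. Dkc1 was lower than J1 in both lines that lack Dnmt1, Rif1 was lower in Dnmt1_KO, Acd was lower in TKO, and Pot1b was lower in PRDM14_DNMT3B. All of these are calls at the brightest probes. Unlike those of Tinf2, each was lost under some other processing or without some arrays, as given with each gene. The 5 comparisons share the 2 J1 arrays, so a J1 array that reads low or high moves all of them. The plot of levels by line shows these values array by array.

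**Figure D1:**
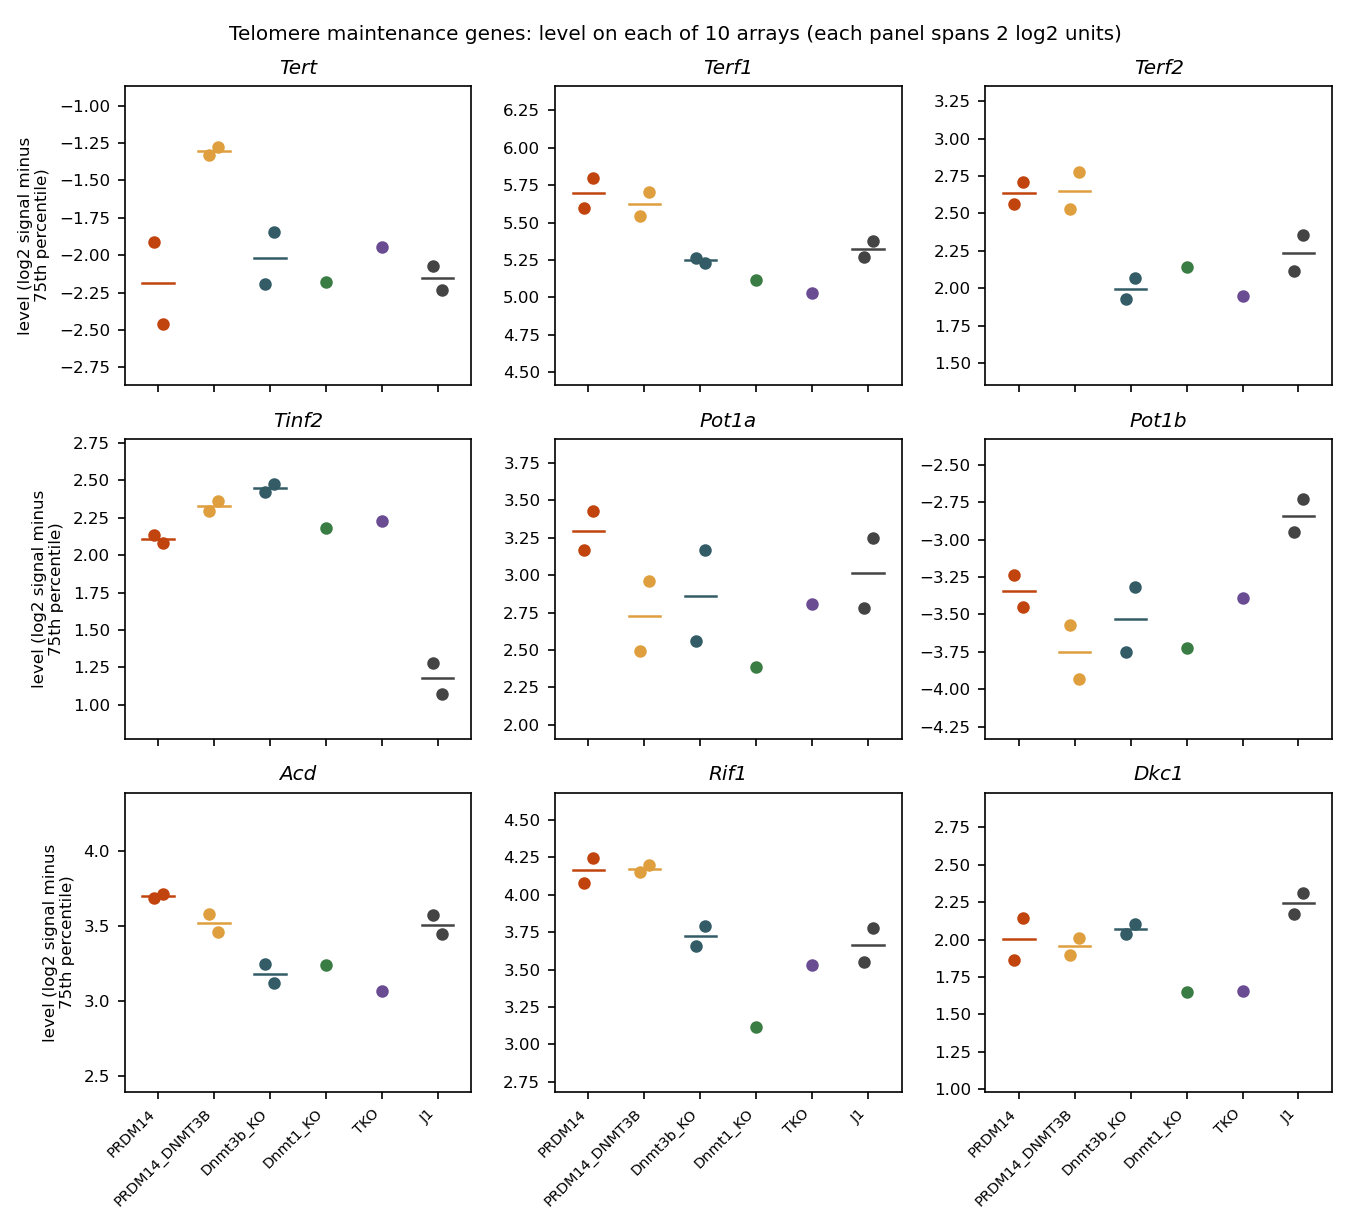
Level of each member gene at its brightest probe on each of the 10 arrays (vertical axis, log2 signal relative to the array's 75th percentile; every panel spans 2 log2 units; points are arrays and lines are group means). Tinf2 sits between 2.08 and 2.47 on all 8 arrays of the other lines, above 1.28 and 1.07 on the J1 arrays, and Tert is highest on both PRDM14_DNMT3B arrays.

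Tert, the catalytic subunit of telomerase, was read by A_51_P433778 at chr13:73786429-73786488 on the plus strand. Its level was -1.92 and -2.46 in PRDM14, -1.33 and -1.28 in PRDM14_DNMT3B, -2.20 and -1.85 in Dnmt3b_KO, -2.18 in Dnmt1_KO and -1.95 in TKO, against -2.07 and -2.23 in J1. The PRDM14_DNMT3B arrays lay above all others, and the remaining lines overlapped J1 or lay close to it, with differences of -0.04 in PRDM14, 0.13 in Dnmt3b_KO, -0.03 in Dnmt1_KO and 0.21 in TKO that did not pass. Tert rose in PRDM14_DNMT3B by 0.85 ± 0.21 (SE) over J1, a 1.80-fold difference (limma adjusted p = 0.0245), and by 0.89 ± 0.21 over PRDM14 (limma adjusted p = 0.0385). Within slides the difference from J1 was 0.74 on slide 1 and 0.96 on slide 2. The difference from PRDM14 had an adjusted p of 0.0502 with replicate number as a block, and it passed without PRDM14 replicate 1 but not without any other single replicate array (adjusted p 0.0513 to 0.136). With normexp background correction the differences were 0.45 over J1 and 0.42 over PRDM14, and both passed (0.0144 and 0.0333). The difference from J1 did not pass without either PRDM14_DNMT3B array or either J1 array (0.0622 to 0.101).

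Dkc1, which encodes the pseudouridine synthase dyskerin of telomerase and of H/ACA small nucleolar RNPs, was read by A_52_P406828 at chrX:72354473-72354532 on the plus strand. Its level was 1.86 and 2.15 in PRDM14, 1.90 and 2.01 in PRDM14_DNMT3B, 2.04 and 2.10 in Dnmt3b_KO, 1.65 in Dnmt1_KO and 1.65 in TKO, against 2.17 and 2.31 in J1. Both J1 arrays lay above all others, and the 2 lines without Dnmt1 lay below all others. Dkc1 fell by 0.59 ± 0.16 (SE) against J1 in Dnmt1_KO (limma adjusted p = 0.0408) and by 0.59 ± 0.16 in TKO (limma adjusted p = 0.0410). Under quantile normalization the difference in Dnmt1_KO was -0.48 with an adjusted p of 0.0542, and relative to the median of its chromosome neither line passed (0.110 and 0.0823). Both calls were also lost without any 1 array of PRDM14_DNMT3B, Dnmt3b_KO or J1 (0.0635 to 0.123). In PRDM14_DNMT3B the difference from J1 was -0.29 with an adjusted p of 0.135, or 0.0434 with replicate number as a block.

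Terf1 encodes TRF1, which counts and protects double-stranded repeats and helps their replication, and was read by A_55_P2000304 at chr1:15833432-15833491 on the plus strand. Its level was 5.60 and 5.80 in PRDM14, 5.54 and 5.70 in PRDM14_DNMT3B, 5.26 and 5.23 in Dnmt3b_KO, 5.12 in Dnmt1_KO and 5.03 in TKO, against 5.27 and 5.38 in J1. The 4 arrays of the lines labelled as expressing Prdm14 lay above all others. Terf1 rose by 0.37 ± 0.11 (SE) in PRDM14 over J1 (limma adjusted p = 0.0449) and by 0.45 ± 0.11 in PRDM14 over Dnmt3b_KO (limma adjusted p = 0.0268). The call against J1 was lost without any 1 of the 8 replicated arrays (adjusted p 0.0582 to 0.199), with normexp background correction (0.0807), quantile normalization (0.0527) or the authors' deposited table (0.0557), and with no filter on dim probes (0.120). That against Dnmt3b_KO was lost without PRDM14 replicate 2 or either Dnmt3b_KO array (0.0942 to 0.129), with quantile normalization (0.0677), the authors' deposited table (0.0714) or no filter on dim probes (0.0820), and relative to the chromosome medians (0.0570). The difference between PRDM14_DNMT3B and J1 was 0.30 with an adjusted p of 0.0859, or 0.0420 with replicate number as a block.

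Terf2 encodes TRF2, which forms the protective loop at chromosome ends and keeps them from being joined. At the 5′-most probe its level was -0.19 and -0.07 in PRDM14, -0.09 and -0.22 in PRDM14_DNMT3B, -0.67 and -0.72 in Dnmt3b_KO, -0.70 in Dnmt1_KO and -0.76 in TKO, against -0.76 and -0.62 in J1. The 4 arrays of PRDM14 and PRDM14_DNMT3B lay above all others, and the remaining lines lay close to J1. The difference from J1 passed at this probe in PRDM14 (0.56 ± 0.10 (SE), limma adjusted p = 0.00854) and in PRDM14_DNMT3B (0.54 ± 0.10, limma adjusted p = 0.00976). Without PRDM14 replicate 2 the adjusted p in PRDM14 was 0.0540, and without PRDM14_DNMT3B replicate 1 it was 0.0532 in PRDM14_DNMT3B.

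At the brightest Terf2 probe the order was alike but the arrays spread more. The level was 2.56 and 2.71 in PRDM14, 2.53 and 2.78 in PRDM14_DNMT3B, 1.92 and 2.07 in Dnmt3b_KO, 2.14 in Dnmt1_KO and 1.95 in TKO, against 2.11 and 2.35 in J1. The difference from J1 was 0.40 ± 0.14 (SE) in PRDM14 and 0.42 ± 0.14 in PRDM14_DNMT3B, with limma adjusted p-values of 0.0730 and 0.0653. With replicate number as a block they were 0.00981 and 0.00877. Against Dnmt3b_KO this probe passed in both lines, with differences of 0.64 ± 0.14 for PRDM14 (limma adjusted p = 0.0180) and 0.66 ± 0.14 for PRDM14_DNMT3B (limma adjusted p = 0.0189). The first was lost without any 1 array of PRDM14 or Dnmt3b_KO (0.0505 to 0.0961), and the second without either Dnmt3b_KO array or PRDM14_DNMT3B replicate 2 (0.0557 to 0.0955).

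At the 3′-most Terf2 probe the order of the lines was another. The level was 1.15 and 1.25 in PRDM14, 2.05 and 1.74 in PRDM14_DNMT3B, 1.22 and 1.24 in Dnmt3b_KO, 0.82 in Dnmt1_KO and 0.52 in TKO, against 1.51 and 1.43 in J1. PRDM14_DNMT3B was highest, J1 followed, and TKO was lowest. The difference from J1 was 0.42 ± 0.12 (SE) in PRDM14_DNMT3B (limma adjusted p = 0.0410), -0.65 ± 0.15 in Dnmt1_KO (0.0293) and -0.95 ± 0.15 in TKO (0.00840). In PRDM14 it was -0.27 with an adjusted p of 0.146, and PRDM14_DNMT3B lay 0.69 ± 0.12 above PRDM14 (limma adjusted p = 0.0167). The TKO call held under all 16 alternatives run. The call between PRDM14_DNMT3B and PRDM14 was lost without either PRDM14 array or PRDM14_DNMT3B replicate 1 (adjusted p 0.0548 to 0.0973). The PRDM14_DNMT3B call against J1 held in 5 of 18, with a difference of 0.16 under normexp background correction (0.492), and was lost without any 1 replicated array other than PRDM14_DNMT3B replicate 2 (adjusted p 0.0703 to 0.150), and the Dnmt1_KO call was lost without any 1 array of PRDM14, Dnmt3b_KO or J1 (0.0560 to 0.0831).

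Whether the 3′-most and the brightest probe moved apart was tested on the difference between the 2 probes in each array, an analysis chosen after these values were seen. The gap changed by -0.67 ± 0.22 (SE) in PRDM14 against J1, by 0.68 ± 0.22 in PRDM14_DNMT3B against PRDM14 and by -0.66 ± 0.27 in TKO against J1. None passed in limma after adjustment over 9288 probe pairs (adjusted p = 0.129, 0.218 and 0.282), although each had an unadjusted p under 0.05. In PRDM14 against J1, 10.3% of all pairs passed this test. The plot of the 3 probes shows the array values.

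**Figure D2:**
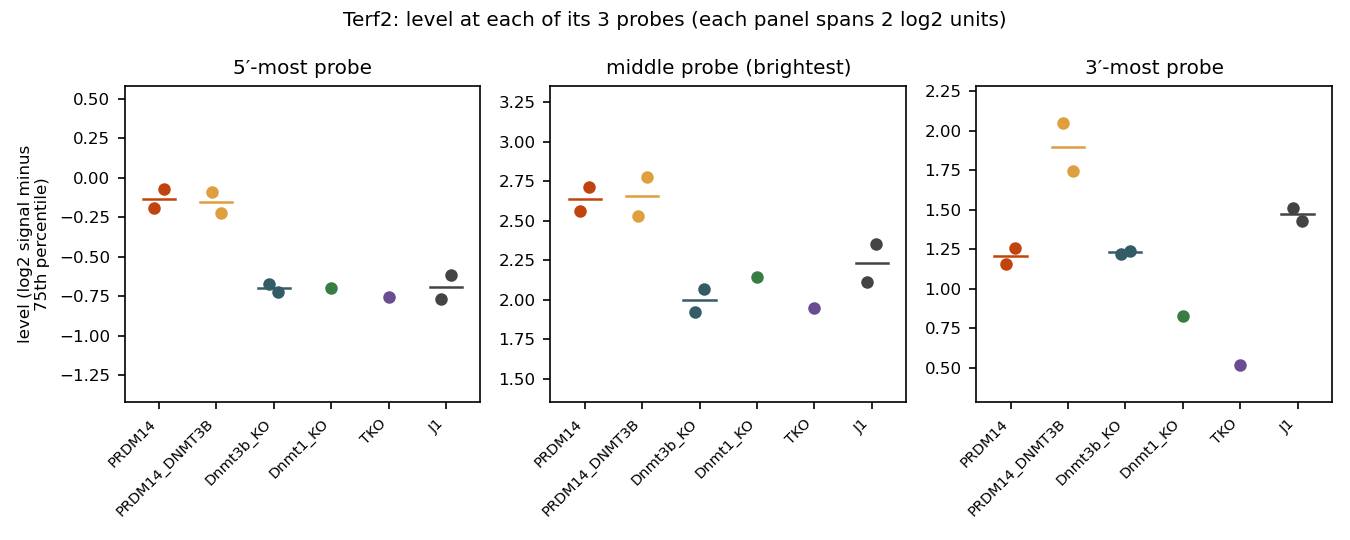
Level of Terf2 at its 3 probes, from 5′ to 3′ (vertical axis, log2 signal relative to the array's 75th percentile; points are arrays, lines are group means, every panel spans 2 log2 units). PRDM14 and PRDM14_DNMT3B lie together above the other lines at the first 2 probes, while at the 3′-most probe PRDM14 (1.15 and 1.25) lies below J1 (1.51 and 1.43) and TKO is lowest at 0.52.

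Tinf2 encodes TIN2, the hub that bridges TRF1, TRF2 and TPP1. At its brightest probe the level was 2.13 and 2.08 in PRDM14, 2.29 and 2.36 in PRDM14_DNMT3B, 2.42 and 2.47 in Dnmt3b_KO, 2.18 in Dnmt1_KO and 2.23 in TKO, against 1.28 and 1.07 in J1. J1 was the lowest line by a wide margin and no array of another line came near it. Tinf2 rose over J1 by 0.93 ± 0.10 (SE) in PRDM14 (limma adjusted p = 0.00129), by 1.15 ± 0.10 in PRDM14_DNMT3B (0.000605), by 1.27 ± 0.10 in Dnmt3b_KO (0.00180), by 1.01 ± 0.13 in Dnmt1_KO (0.00439) and by 1.05 ± 0.13 in TKO (0.00345). These are 1.90-fold, 2.22-fold, 2.42-fold, 2.01-fold and 2.07-fold differences in that order of lines.

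The second Tinf2 probe, A_52_P639551, gave the same picture. Its level was 1.60 and 1.61 in PRDM14, 1.77 and 1.89 in PRDM14_DNMT3B, 1.91 and 2.06 in Dnmt3b_KO, 1.90 in Dnmt1_KO and 1.81 in TKO, against 0.79 and 1.01 in J1. Its differences from J1 ran from 0.71 in PRDM14 to 1.09 in Dnmt3b_KO, and all 5 passed (limma adjusted p 0.00196 to 0.00768). At the brightest probe, every one of these calls held under all alternatives run, 18 in PRDM14, 19 in PRDM14_DNMT3B and in Dnmt3b_KO, and 17 in Dnmt1_KO and in TKO, and the difference stayed between 0.74 and 1.38 across them. Within slide 1 the brightest probe was higher than in J1 by 1.01 in PRDM14_DNMT3B, 1.14 in Dnmt3b_KO, 0.90 in Dnmt1_KO and 0.95 in TKO, and within slide 2 by 1.29 in PRDM14_DNMT3B and 1.40 in Dnmt3b_KO. The 2 PRDM14 arrays were each alone on a slide, so slide and line cannot be told apart in any comparison of PRDM14.

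Among the lines that were higher than J1, Tinf2 was lower in PRDM14 than in Dnmt3b_KO. The difference was -0.34 ± 0.10 (SE) at the brightest probe (limma adjusted p = 0.0478) and -0.38 ± 0.12 at the second, which passed narrowly. Without any 1 of the arrays of PRDM14, PRDM14_DNMT3B or Dnmt3b_KO the call at the brightest probe was lost (adjusted p 0.0754 to 0.179). PRDM14_DNMT3B lay 0.22 above PRDM14, with an adjusted p of 0.192, and 0.12 below Dnmt3b_KO, with an adjusted p of 0.452.

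Acd encodes TPP1, the partner of POT1 that recruits telomerase to the chromosome end, and was read by A_55_P2042953 at chr8:108222138-108222197 on the minus strand. Its level was 3.69 and 3.72 in PRDM14, 3.58 and 3.46 in PRDM14_DNMT3B, 3.24 and 3.12 in Dnmt3b_KO, 3.24 in Dnmt1_KO and 3.07 in TKO, against 3.57 and 3.45 in J1. All 4 arrays of the knockout lines lay below all 6 others. Acd fell by 0.44 ± 0.12 (SE) in TKO against J1 (limma adjusted p = 0.0442). The difference was -0.33 ± 0.10 in Dnmt3b_KO, with an adjusted p of 0.0714, or 0.0364 with replicate number as a block, and -0.27 in Dnmt1_KO (0.158). Acd rose in PRDM14 over Dnmt3b_KO by 0.52 ± 0.10 (limma adjusted p = 0.0104) and in PRDM14_DNMT3B over Dnmt3b_KO by 0.34 ± 0.10 (0.0499). The TKO call was lost without any 1 replicated array (adjusted p 0.0651 to 0.118), and under quantile normalization the difference was -0.30 (0.147). Against Dnmt3b_KO, the PRDM14 call was lost without either PRDM14 array or Dnmt3b_KO replicate 2 (0.0532 to 0.0616), and the PRDM14_DNMT3B call without any 1 replicated array (0.0618 to 0.218).

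Pot1a and Pot1b are the mouse genes for POT1, which binds the single-stranded overhang and keeps DNA damage signalling off it. Pot1a was read by A_55_P2115458 at chr6:25693898-25693957 on the minus strand, with levels of 3.17 and 3.43 in PRDM14, 2.49 and 2.96 in PRDM14_DNMT3B, 2.56 and 3.17 in Dnmt3b_KO, 2.38 in Dnmt1_KO and 2.80 in TKO, against 2.78 and 3.25 in J1. In all 4 replicated lines the array numbered 2 was the higher one. PRDM14 lay above PRDM14_DNMT3B and, narrowly, above Dnmt3b_KO, Dnmt1_KO lay below all others, and PRDM14, PRDM14_DNMT3B, Dnmt3b_KO and TKO each overlapped J1 or lay within its range. No difference between lines passed for Pot1a. With replicate number as a block, the difference between PRDM14_DNMT3B and PRDM14 (-0.57 ± 0.29 (SE), limma adjusted p = 0.221) had an adjusted p of 0.0213, and that between PRDM14 and Dnmt3b_KO (0.44, 0.295) one of 0.0270.

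Pot1b was read by A_51_P115374 at chr17:55792319-55792378 on the minus strand, as the mean of 10 spots close to background. Its level was -3.23 and -3.45 in PRDM14, -3.57 and -3.93 in PRDM14_DNMT3B, -3.75 and -3.32 in Dnmt3b_KO, -3.72 in Dnmt1_KO and -3.39 in TKO, against -2.95 and -2.73 in J1. Both J1 arrays lay above all others. The probe was well above background on 8 of the 10 arrays. Pot1b fell by 0.91 ± 0.20 (SE) in PRDM14_DNMT3B against J1 (limma adjusted p = 0.0169). With normexp background correction the difference was -0.35 and passed (0.0289). With slide as a block the adjusted p was 0.0550, without PRDM14_DNMT3B replicate 2 it was 0.0801 and without J1 replicate 2 it was 0.0787. Within slides the difference was -0.62 on slide 1 and -1.21 on slide 2. The differences from J1 of the other lines were -0.50 in PRDM14, -0.69 in Dnmt3b_KO, -0.88 in Dnmt1_KO and -0.55 in TKO, with adjusted p of 0.108, 0.0672, 0.0504 and 0.165.

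Rif1 is known in budding yeast as a limiter of telomere length and in mouse cells as a regulator of replication timing and double-strand break repair. It was read by A_55_P2015964 at chr2:51977508-51977567 on the plus strand. Its level was 4.08 and 4.25 in PRDM14, 4.15 and 4.20 in PRDM14_DNMT3B, 3.66 and 3.79 in Dnmt3b_KO, 3.11 in Dnmt1_KO and 3.53 in TKO, against 3.55 and 3.78 in J1. The 4 arrays of the lines labelled as expressing Prdm14 lay above all others and Dnmt1_KO lay below all others. Rif1 rose over J1 by 0.50 ± 0.12 (SE) in PRDM14 (limma adjusted p = 0.0221) and by 0.51 ± 0.12 in PRDM14_DNMT3B (0.0202). It fell by 0.55 ± 0.15 in Dnmt1_KO (0.0428), where the difference was -0.36 under quantile normalization (0.123) and -0.35 relative to the median of its chromosome (0.159). The difference in TKO was -0.13 (0.573). Rif1 was also higher in PRDM14 than in Dnmt3b_KO by 0.44 ± 0.12 (0.0370) and in PRDM14_DNMT3B than in Dnmt3b_KO by 0.45 ± 0.12 (0.0389). The PRDM14 call against J1 was lost without either PRDM14 array or J1 replicate 1 (adjusted p 0.0502 to 0.114), the PRDM14_DNMT3B call without either of its arrays or J1 replicate 1 (0.0668 to 0.0878), and the Dnmt1_KO call without any 1 replicated array other than J1 replicate 1 (0.0654 to 0.116). Against Dnmt3b_KO both calls were lost without any 1 replicated array other than those of J1 (0.0588 to 0.169).

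The members called in each comparison, each at its brightest probe, are set here beside the share of all genes called. Terf2 calls at its other probes, given above, are not counted. In PRDM14 against J1, 3 of the 9 genes were higher (Terf1, Tinf2 and Rif1) and 0 lower by limma, beside 20.4% of 23811 genes higher and 18.2% lower. The members' median difference was 0.28, that of all genes -0.03, and 4 members had an unadjusted p under 0.05. In PRDM14_DNMT3B against J1, 3 were higher (Tert, Tinf2 and Rif1) and 1 lower (Pot1b), beside 19.1% of all genes higher and 19.3% lower. Replicate number as a block raised these to 5 higher and 2 lower. In PRDM14_DNMT3B against PRDM14, Tert alone was higher at the brightest probes, beside 9.39% of all genes higher and 10.4% lower. The 3′-most Terf2 probe, not counted, was also higher there, by 0.69.

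In Dnmt3b_KO against J1, Tinf2 alone was higher and 0 members were lower by limma, beside 10.3% of all genes higher and 9.37% lower, and 3 members had an unadjusted p under 0.05. With replicate number as a block 1 member, Acd, was lower. In Dnmt1_KO against J1, Tinf2 was higher and Rif1 and Dkc1 were lower, beside 12.7% of all genes higher and 14% lower. In TKO against J1, Tinf2 was higher and Acd and Dkc1 were lower, beside 13.5% higher and 13.8% lower. The members' median difference was -0.27 in Dnmt1_KO and -0.29 in TKO, against -0.14 and -0.07 for all genes. The 3′-most Terf2 probe, not counted, differed from J1 by -0.65 in Dnmt1_KO and -0.95 in TKO.

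Set against Dnmt3b_KO, 4 members were higher in PRDM14 (Terf1, Terf2, Acd and Rif1) and Tinf2 was lower, beside 20.9% of all genes higher and 15.3% lower. This count of 5 was 0 to 5 without single replicate arrays and 1 relative to the chromosome medians. In PRDM14_DNMT3B against Dnmt3b_KO, Terf2, Acd and Rif1 were higher, beside 15.8% of all genes higher and 14.1% lower. This count of 3 was 0 to 2 without single replicate arrays and 0 relative to the chromosome medians. Here Terf1 differed by 0.38, with an adjusted p of 0.0543, or 0.0273 with replicate number as a block. The plot of differences from J1 sets the members beside each other.

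**Figure D3:**
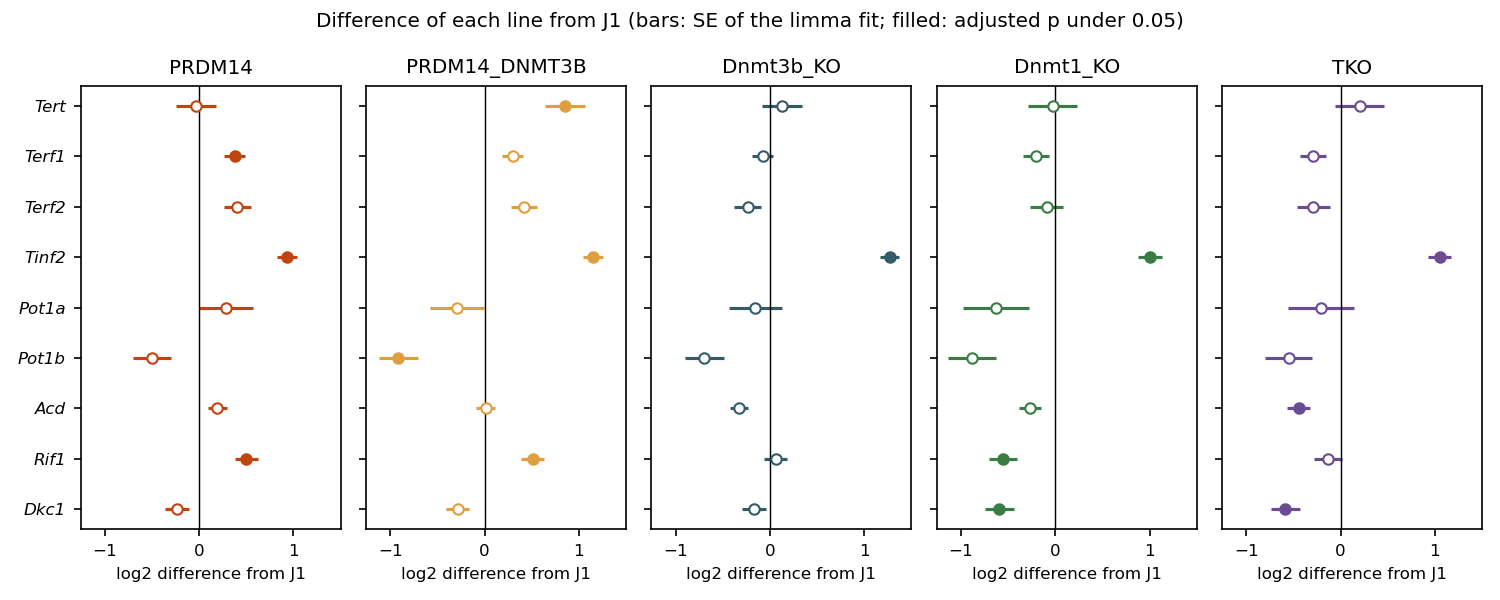
Difference of each line from J1 for the 9 member genes (horizontal axis, log2 units; points are fitted differences, bars are SE of the limma fit, filled points passed at an adjusted p under 0.05). Tinf2 is filled and close to 1 in every panel, from 0.93 in PRDM14 to 1.27 in Dnmt3b_KO, while the other members lie closer to 0 or are filled in some lines only.

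Terf2 and Acd are both on chromosome 8. Genes of that chromosome differed together in the lines labelled as expressing Prdm14 and, to a lesser degree, in TKO. The median difference over 1300 chromosome 8 genes was 0.40 in PRDM14 against J1 and 0.29 in PRDM14_DNMT3B against J1, whereas over the other autosomes it was -0.04 and -0.07. In Dnmt3b_KO, Dnmt1_KO and TKO against J1 the chromosome 8 median was -0.08, -0.16 and 0.15. Over the other autosomes it was -0.10, -0.14 and -0.08. Terf2 at its brightest probe, 0.40 above J1 in PRDM14 and 0.42 in PRDM14_DNMT3B, therefore lay near its chromosome's median.

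Each difference was also computed relative to the median of its chromosome. The 5′-most Terf2 probe then differed from J1 by 0.14 in PRDM14 (limma adjusted p = 0.341) and by 0.22 in PRDM14_DNMT3B (0.152), and neither passed. The 3′-most probe differed by -0.69 in PRDM14 and passed (0.00817). Against Dnmt3b_KO, Acd differed by 0.02 in PRDM14 (0.912) and, with its sign turned, by -0.05 in PRDM14_DNMT3B (0.758), and Terf2 at its brightest probe by 0.14 and 0.26 (0.516 and 0.238). The lower Acd in TKO passed on this scale, at -0.59 (0.0196).

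Tinf2 lies on chromosome 14, whose 927 genes had median differences from J1 of 0.13 in PRDM14, 0.07 in PRDM14_DNMT3B, 0.02 in Dnmt3b_KO, 0.02 in Dnmt1_KO and 0.13 in TKO. Over the other autosomes the medians were -0.03, -0.06, -0.10, -0.15 and -0.08 in that order. Genes of chromosome 14 thus lay somewhat higher than those of other autosomes in all 5 lines. All 5 Tinf2 calls passed relative to these medians as well. The plot of chromosome medians shows both cases.

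**Figure D4:**
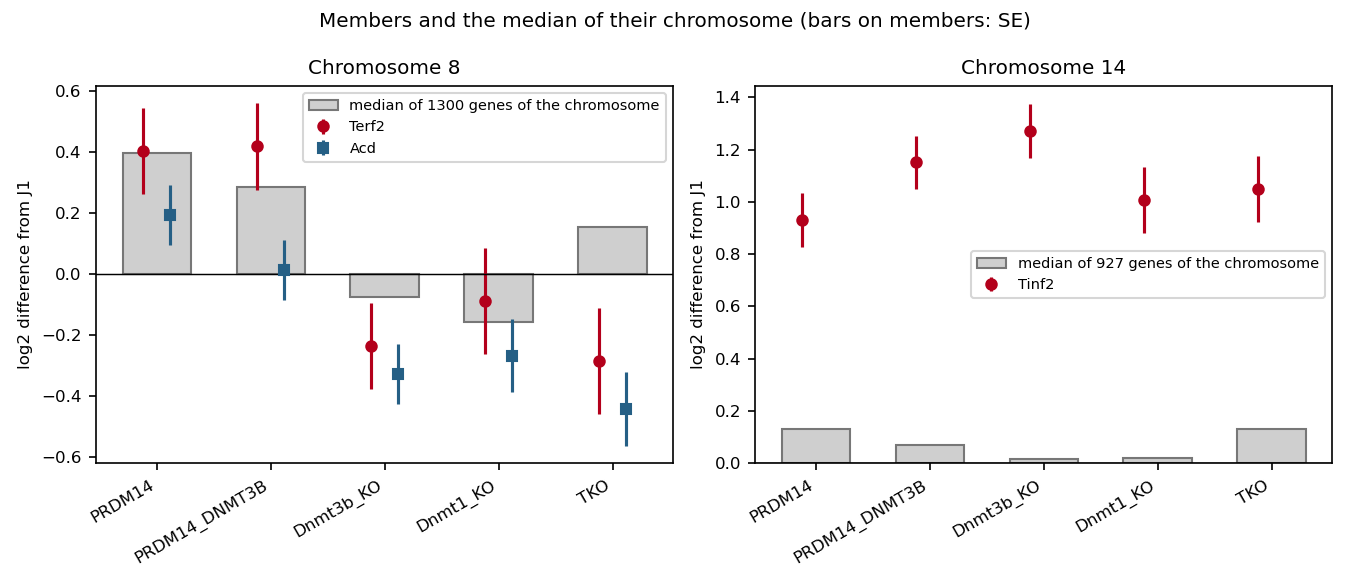
Difference from J1 (vertical axis, log2 units) of member genes at their brightest probe (symbols, with SE) beside the median of all tested genes of the same chromosome (grey columns), for chromosome 8 on the left and chromosome 14 on the right. Terf2 lies at the column's height in PRDM14 (0.40 for both), while Tinf2 lies far above the chromosome 14 medians, which reach 0.13.

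The other genes of the pathway were taken from a list of 42, of which 41 had a probe and 38 were tested. Of these, 4 encode telomere factors of the 2-cell stage (Zscan4c, Zscan4f, Tcstv1 and Tcstv3). All 4 passed as higher in PRDM14, PRDM14_DNMT3B, Dnmt1_KO and TKO against J1 by limma. Tcstv1 and Tcstv3 were not well above background in J1 (mean levels of -6.08 and -6.05), nor was Tcstv3 in TKO. These 2 probes were tested only through the lines where they are bright, so their calls against J1 are no separate support. Zscan4c, whose near-identical copies may share its signal, had levels of 4.13 and 4.24 in PRDM14, 4.05 and 4.06 in PRDM14_DNMT3B, -2.71 and -3.09 in Dnmt3b_KO, 2.00 in Dnmt1_KO and 1.18 in TKO, against -2.47 and -2.81 in J1. Its differences from J1 were 6.83, 6.70, -0.26, 4.64 and 3.82 in that order of lines, and only that of Dnmt3b_KO did not pass. Tcstv3 was at least 29.2-fold higher in PRDM14, where J1 is taken at the lowest signal well above background on its arrays. Of the genes named from this list, Zscan4c, Shq1, Terf2ip, Sun1 and H3f3b have several tested probes. Only the brightest is given, and whether the others gave the same result is not shown.

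Among the remaining 34 genes, 16 were higher and 3 lower in PRDM14 against J1 by limma, with a median difference of 0.32. In PRDM14_DNMT3B against J1, 13 were higher and 5 lower, with a median of 0.27. In Dnmt3b_KO, Dnmt1_KO and TKO the counts were 4 higher and 6 lower, 6 and 7, and 5 and 8, with medians of -0.04, -0.14 and 0.07. In PRDM14_DNMT3B against PRDM14, 2 were higher and 2 lower. The shares of all genes given above for each comparison are the background for these counts. Of the 34 genes, 4 are on chromosome 8, and all 4 were higher in PRDM14, so 12 of the other 30 were higher and 3 lower. In Dnmt1_KO against J1 the median over chromosome 11 genes was 0.03, while over the other autosomes it was -0.16. Nhp2, Wrap53, Smg6, Ctc1, Ten1, Rad50 and H3f3b of this list lie on chromosome 11. Without any 1 replicated array, 9 to 17 of the 34 passed in PRDM14 against J1, in either direction.

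By role, 5 of 6 tested genes for DNA replication and end processing were higher in PRDM14 than in J1, beside 20.4% of all genes. So were 5 of 8 genes for telomerase assembly and regulation. Counts of classes this small are not set against each other. Pif1, a helicase that in yeast removes telomerase from chromosome ends, had levels of 2.94 and 3.06 in PRDM14, 2.46 and 2.47 in PRDM14_DNMT3B, 0.42 and 0.41 in Dnmt3b_KO, 1.22 in Dnmt1_KO and 0.88 in TKO, against 0.84 and 0.81 in J1. It rose by 2.17 ± 0.09 (SE) in PRDM14 (limma adjusted p = 5.45e-05) and by 1.64 ± 0.09 in PRDM14_DNMT3B, fell by 0.41 in Dnmt3b_KO (0.0249), and differed by -0.54 between PRDM14_DNMT3B and PRDM14 (0.0118). Without either Dnmt3b_KO or either J1 array the Dnmt3b_KO difference did not pass (0.0789 to 0.113). Wrn, the Werner syndrome helicase on chromosome 8, rose by 0.85 in PRDM14 and Tnks, a tankyrase on the same chromosome that releases TRF1 from telomeres in human cells, by 0.75. Both passed in all 18 alternatives, and relative to the chromosome median they differed by 0.43 and 0.33.

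Of the shelterin and CST genes outside the 9, Terf2ip, which encodes the TRF2 partner RAP1 and is on chromosome 8, rose by 0.69 ± 0.14 (SE) in PRDM14 (limma adjusted p = 0.0113). Relative to its chromosome it differed by 0.28 (0.176), and without either PRDM14 array it did not pass (0.0607 and 0.0565). The CST complex, which completes synthesis of the complementary strand, did not move as 1: Ctc1 rose by 0.50 in PRDM14, while Stn1 fell by 0.46 and Ten1 by 0.69. Stn1 was lower than J1 in all 5 lines. Its level was 3.45 and 3.65 in PRDM14, 3.54 and 3.47 in PRDM14_DNMT3B, 3.57 and 3.50 in Dnmt3b_KO, 3.15 in Dnmt1_KO and 3.01 in TKO, against 4.0 and 4.03 in J1. Its differences were -0.46, -0.51, -0.48, -0.86 and -1.01 in that order (limma adjusted p 0.00367 to 0.0259). These calls held in 14 of 18 alternatives in PRDM14, 18 of 19 in PRDM14_DNMT3B, 13 of 19 in Dnmt3b_KO and all 17 in Dnmt1_KO and in TKO.

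Tep1, which encodes a protein bound to telomerase RNA, was the other listed gene that passed in all 5 lines, and like Tinf2 it is on chromosome 14. For Stn1 and Tep1, as for Tinf2, the share of all genes that passed in all 5 is not given here. Its level was 0.21 and 0.27 in PRDM14, 0.77 and 0.77 in PRDM14_DNMT3B, 0.59 and 0.79 in Dnmt3b_KO, 0.31 in Dnmt1_KO and 0.75 in TKO, against -0.53 and -0.41 in J1. It rose over J1 by 0.71, 1.24, 1.16, 0.78 and 1.22 in that order (limma adjusted p 0.000493 to 0.0101), and these calls held under all alternatives run. It was also higher in PRDM14_DNMT3B than in PRDM14 by 0.53 (limma adjusted p = 0.0220), which held in 13 of 18. Of the telomerase RNP genes 1 of 5 was higher in PRDM14, Wrap53 (0.37), whose product carries telomerase RNA to Cajal bodies. That is near the 20.4% of all genes called higher. The telomerase RNA gene Terc differed by 0.45 ± 0.25 (SE), with an adjusted p of 0.211. Shq1, a dyskerin chaperone, rose by 0.56, a call lost without either PRDM14 or either J1 array (0.0553 to 0.128), and that of Wrap53 was lost without either PRDM14 array or J1 replicate 2 (0.0712 to 0.0780).

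In the classes of telomeric chromatin and meiotic attachment, Daxx, a chaperone of histone H3.3, rose by 0.45 in PRDM14, H3f3b, a gene for H3.3, fell by 0.45 (0.0323, or 0.104 to 0.133 without either PRDM14 array or J1 replicate 1), and Sun1, a nuclear envelope protein that anchors meiotic telomeres, rose by 1.16 ± 0.09 (SE; limma adjusted p = 0.000340). None of the 3 genes of the MRN complex, which senses double-strand breaks, passed in PRDM14 against J1. Of all genes, 20.4% were higher and 18.2% lower there. The plot of the wider list shows all 34 genes.

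**Figure D5:**
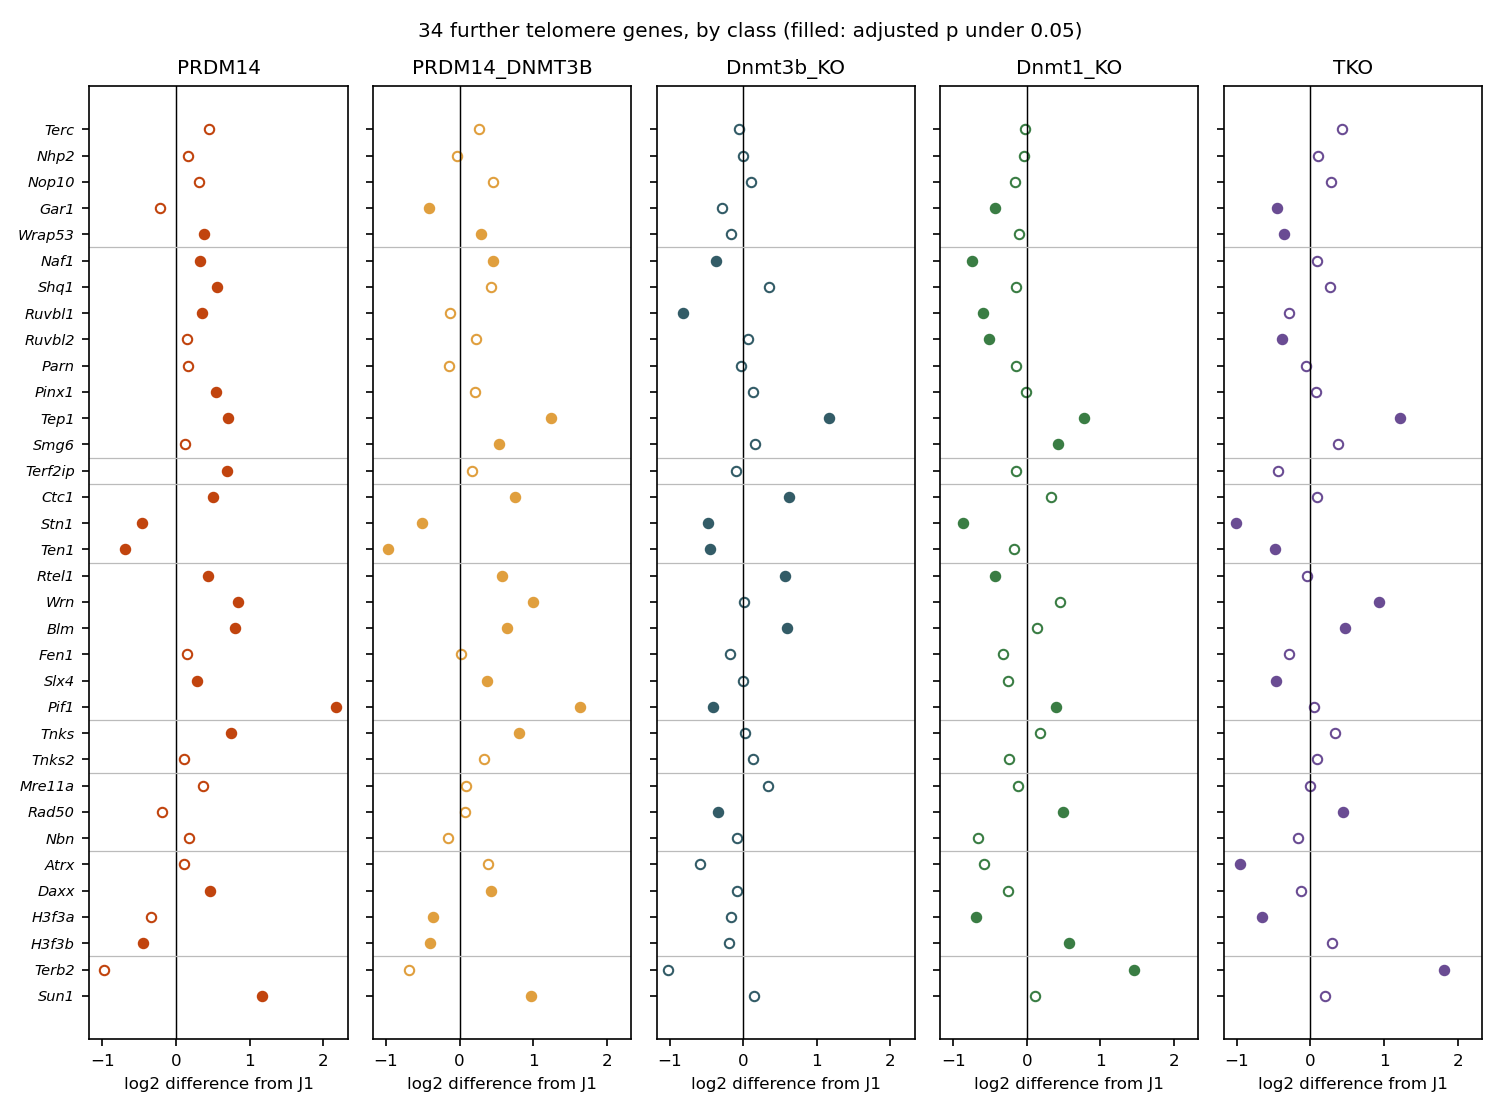
Difference of each line from J1 for the 34 listed telomere genes other than the 2-cell factors, grouped by class (horizontal axis, log2 units; filled points passed at a limma adjusted p under 0.05). Pif1 (2.17) and Sun1 (1.16) lie farthest right in PRDM14, and Tep1 and Stn1 are filled in every panel.

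At the brightest probe of each gene, Tinf2 and Rif1 had the widest range of group means among the members above background on all arrays, 1.27 and 1.06 log2 units. Over the 6 group means, the genes most like Tinf2 among 6582 candidates were Sh3pxd2b (Pearson r = 0.986), Rtn3 (0.986) and Purg (0.981), and 32 candidates had r over 0.95. Those most like Rif1 were Clip4 (0.996), 1700019D03Rik (0.996) and Zfp532 (0.994), with 200 over 0.95. These are descriptions over 6 points that come from the same 10 arrays.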

How the data were processed

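Total RNA was hybridised to 10 one-colour Agilent arrays with 59305 spots each. The deposited scanner files hold the authors' intensity values after Agilent Feature Extraction 10.7.3.1, which subtracts background and gives a processed signal in linear units per the file headers. A deposited table of log2 values by the authors was used as an alternative. Its 10 columns share a median of 4.24, and the sources used here do not state its exact scaling. The submitters' processing notes also name limma.

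Spots that were controls or outliers were dropped, spots of a probe were averaged, and log2 signal was centred on each array's 75th percentile. A probe was kept if at least 1 group had it well above background on all its arrays (33099 probes). With R 4.3.3 and limma 3.58.1, 6 group means were fitted over 10 arrays, with 4 residual degrees of freedom, so the number of arrays limits the precision, and p-values were adjusted by Benjamini-Hochberg. A gene is its brightest tested probe (23811 genes, 6141 with several tested probes). Gene names and mm9 positions are those of the scanner files, and 26582 of 28116 accessions were matched to current RefSeq symbols. The fit was tested on simulated data.

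All members are named. From each class of the wider list the 2 called genes with the largest difference in PRDM14 against J1 are named, plus any gene called in all 5 comparisons with J1. Members and lists were chosen with earlier results of these data known. Deviations of same-numbered arrays correlated at 0.250 to 0.486 in all 6 pairs of replicated groups, so replicate number was taken to pair the arrays, from the data and not from a label. In J1, PRDM14_DNMT3B and Dnmt3b_KO, replicate 1 is on slide 1 and replicate 2 on slide 2, while PRDM14 is on slides 3 and 4. Among those first lines the replicate and slide blocks are the same split, not separate checks. As the replicate block was chosen from these data, its lower adjusted p-values are no separate support. Alternatives were normexp background correction (offset 50), quantile normalization, the authors' table, other filters, 1 probe per gene, slide as a fixed or random block, the replicate block, subtraction of the chromosome median, the replicated groups alone, and leaving out each replicate. Those for the wider list, and the fit of gaps between probes, were added after seeing the data.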

Additional observations from a re-analysis of the deposited data

How the results depend on the processing

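Over 19 alternatives the member probes gave 1708 values. Of these, 1474 kept their side of the threshold, among them 68 that changed sign without a call in either fit, while 188 lost a call and 45 gained one. In 1 case a called sign turned: Acd in PRDM14_DNMT3B against Dnmt3b_KO was -0.052 relative to its chromosome. In the wider list Naf1, on chromosome 8, likewise turned in PRDM14 against J1, to -0.094. The cause of the changes below was not tested. By design, no filter adjusts over more probes and leaving out an array leaves fewer samples, and both also refit the moderated spread.

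The counts that follow are called members. In PRDM14 against J1 the count of 3 became 1 with no filter on dim probes and 1 to 2 without single replicates. In PRDM14_DNMT3B against PRDM14 it was 1, and became 0 with no filter and 0 to 1 without single replicates. In PRDM14_DNMT3B against J1 it was 4, and became 2 with no filter, 7 with the replicate block or with slide as a random block, and 1 to 4 without single replicates. In Dnmt3b_KO against J1 it was 1, and became 2 with normexp, with the filter on all 10 arrays, with the replicate block and with slide as a fixed block, and 3 with slide as a random block. In Dnmt1_KO against J1 it was 3, and became 1 relative to the chromosome or with no filter, 5 with slide as a random block, and 1 to 2 without single replicates. In TKO against J1 it was 3, and became 1 with no filter and 1 to 2 without single replicates. In PRDM14 against Dnmt3b_KO it was 5, and became 1 relative to the chromosome, 2 with no filter, 3 with quantile normalization or the authors' table, and 0 to 5 without single replicates. In PRDM14_DNMT3B against Dnmt3b_KO it was 3, and became 0 relative to the chromosome or with no filter, 1 with quantile normalization or the authors' table, 5 with the filter on all 10 arrays or with slide as a fixed or random block, and 0 to 2 without single replicates.

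Over all probes, no filter gave 3208 calls in PRDM14_DNMT3B against PRDM14 in place of 6438, 3359 in Dnmt3b_KO against J1 in place of 6474, 4713 in Dnmt1_KO against J1 in place of 8738 and 5445 in TKO against J1 in place of 8913. Slide as a random block gave 10874 in Dnmt3b_KO against J1. Without single replicates the calls ran from 8342 to 11964 in PRDM14 against J1, 2246 to 6049 in PRDM14_DNMT3B against PRDM14, 3030 to 5426 in Dnmt3b_KO, 5715 to 7510 in Dnmt1_KO and 6250 to 7895 in TKO against J1, 7186 to 11655 in PRDM14 and 6390 to 9605 in PRDM14_DNMT3B against Dnmt3b_KO. The split of higher and lower calls in Dnmt1_KO against J1 was 3839 to 4899, or 2712 to 2001 with no filter, 2664 to 5715 with the filter on all 10 arrays and 4554 to 2571 relative to chromosomes. Relative to chromosomes it was 3995 to 2199 in Dnmt3b_KO against J1, in place of 3137 to 3337, and 5281 to 5585 in PRDM14 against Dnmt3b_KO, in place of 6975 to 4706.

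Of the 34 wider genes, no filter gave 12 calls in PRDM14 against J1, 0 in PRDM14_DNMT3B against PRDM14, 5 in Dnmt3b_KO, 3 in Dnmt1_KO and 4 in TKO against J1, and 8 in PRDM14_DNMT3B against Dnmt3b_KO. Relative to chromosomes there were 5 in Dnmt3b_KO and 8 in TKO against J1 and 7 in PRDM14 against Dnmt3b_KO, quantile normalization and the authors' table gave 8 in Dnmt1_KO, and the replicate block gave 7 in PRDM14_DNMT3B against PRDM14. Without single replicates the counts ran from 9 to 17 in PRDM14, 11 to 15 in PRDM14_DNMT3B, 4 to 9 in Dnmt3b_KO, 5 to 9 in Dnmt1_KO and 5 to 7 in TKO against J1, 0 to 5 in PRDM14_DNMT3B against PRDM14, and 9 to 12 in PRDM14 and 7 to 13 in PRDM14_DNMT3B against Dnmt3b_KO. The replicate block moved the Tert difference between PRDM14_DNMT3B and PRDM14 out of the calls and 8 differences of Terf1, Terf2, Pot1a, Dkc1 and Acd into them, as given with each gene. Pot1b lay near background, which limits its values.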
